A study of Mus musculus with 4 samples.

Results

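The genes described here are 10 that mark the identity of blood vessel endothelium: Pecam1, Cdh5, Vwf, Nos3, Emcn, Esam, Sox17, Erg, Plvap and Egfl7. They were taken by name, as the genes whose symbols stand in the gene name column of the array files, out of 20049 genes with a RefSeq symbol on the array. The 10 genes were read by 17 probes on 35 spots, and none lacked a probe.

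Total RNA of the left ventricle was hybridised to 4 one-colour Agilent arrays of the whole mouse genome, 7 days after an infarct made by tying off the left anterior descending (LAD) artery. The WT group held the arrays WT 2 and WT 3, from wild-type mice, and the KO group held KO 2 and KO 3, from KDM5B knockout mice. Both groups were 8 to 10 weeks old and labelled male, and both had the infarct, so no uninjured ventricle stands beside them. Per the study's methods the knockout was made with CRISPR/Cas9 by a frameshifting deletion in the region encoding the JmjC domain, on a C57BL/6 background, and it is not restricted to endothelium or to any other cell type.

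Endothelial cells line the inside of vessels and are numerous in heart muscle, where a dense capillary bed supplies the cardiomyocytes. Their identity is kept by transcription factors of the ETS and SOX families, among them Erg and Sox17, and is read from surface and junction proteins, from vasoactive enzymes and from secreted factors that these cells make. After an infarct, vessels are lost in the scar and sprout again from its border, so these genes are often used to follow the vascular bed. KDM5B is a histone demethylase that removes methyl groups from lysine 4 of histone H3.

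The levels below are log2 processed signals minus the log2 of the array's 75th percentile, so that 0 is the 75th percentile of that array. That percentile lay between 608 and 976 signal units. The levels of different probes are not set against each other, because probes differ in how well they bind. Where a gene had several tested probes, the brightest gives its value.

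The labels were checked on Kdm5b itself, whose brighter probe read -0.87 on WT 2 and -1.81 on WT 3, against -2.40 on KO 2 and -2.26 on KO 3. Both KO arrays were thus below both WT arrays, with a signal still well above background, and whether the probe lies in the deleted stretch was not determined here. The arrays also differed along their number. Xist, the transcript of the inactive X chromosome, was well above background on WT 2 and KO 2 alone, and the Y-linked Ddx3y on WT 3 and KO 3 alone, although every sample is labelled male. For this reason differences between genotypes are also given within the number, as KO 2 minus WT 2 and as KO 3 minus WT 3.

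All 10 genes were well above background on all 4 arrays. In bulk tissue, fewer endothelial cells and less RNA per endothelial cell cannot be told apart. None of the 10 met the study's criteria for a difference between genotypes, a fold change over 2 with an adjusted p under 0.05. Of 28305 probes tested, 0% were called, and the 15 tested probes of the 10 genes had 0 calls too. The lowest adjusted p of limma over all tested probes was 0.9999. At an unadjusted p under 0.05 limma passed 410 probes and 0 of the 10 genes, and the lowest unadjusted p among the 10 was 0.245, for Vwf. With 2 arrays a group, an exact two-sided permutation test cannot give a p below 0.333 for any single gene.

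Relative to WT, the KO mean was higher for 7 of the 10 genes and lower for 3, a count that became 5 and 5 when arrays were scaled to spike-in probes and 8 and 2 when they were shifted to a common median. The median difference was 0.18 on the log2 scale, beside 0.04 over the 15062 genes tested. This median was -0.11 without KO 2, and 0.00220 with spike-in scaling. None of the 10 passed a fold change of 2 in either direction, where 3.49% of all tested genes did. The range of the 10 differences ran from -0.55 for Plvap to 0.33 for Vwf.

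Within the numbers the values separated. Between KO 2 and WT 2, 8 of the 10 genes were higher in KO, with a median difference of 0.53, beside 0.04 over all tested genes. Between KO 3 and WT 3, 1 of the 10 was higher, with a median of -0.29, beside 0.03 over all tested genes. Those counts of 8 and 1 were the same under all 5 scalings of the arrays, but the size of the median at number 2 was not. That median was 0.20 with spike-in scaling and 0.59 with a median shift, beside -0.29 and 0.11 over all tested genes. Both numbers are contrasts of 1 array with 1 array, so they carry no test, and the difference between them was not tested.

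By pattern, 7 of the 10 genes had a positive difference at number 2 and a negative one at number 3, a pattern held by 27.6% of all tested genes. Those 7 were Pecam1, Cdh5, Nos3, Emcn, Esam, Sox17 and Egfl7. Vwf was the 1 gene of the 10 that was higher in KO at both numbers, as 25.8% of all tested genes were. Erg and Plvap were lower in KO at both numbers, as 18.4% of all tested genes were, and none of the 10 was lower at number 2 and higher at number 3, where 28.2% of all tested genes were.

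**Figure D1:**
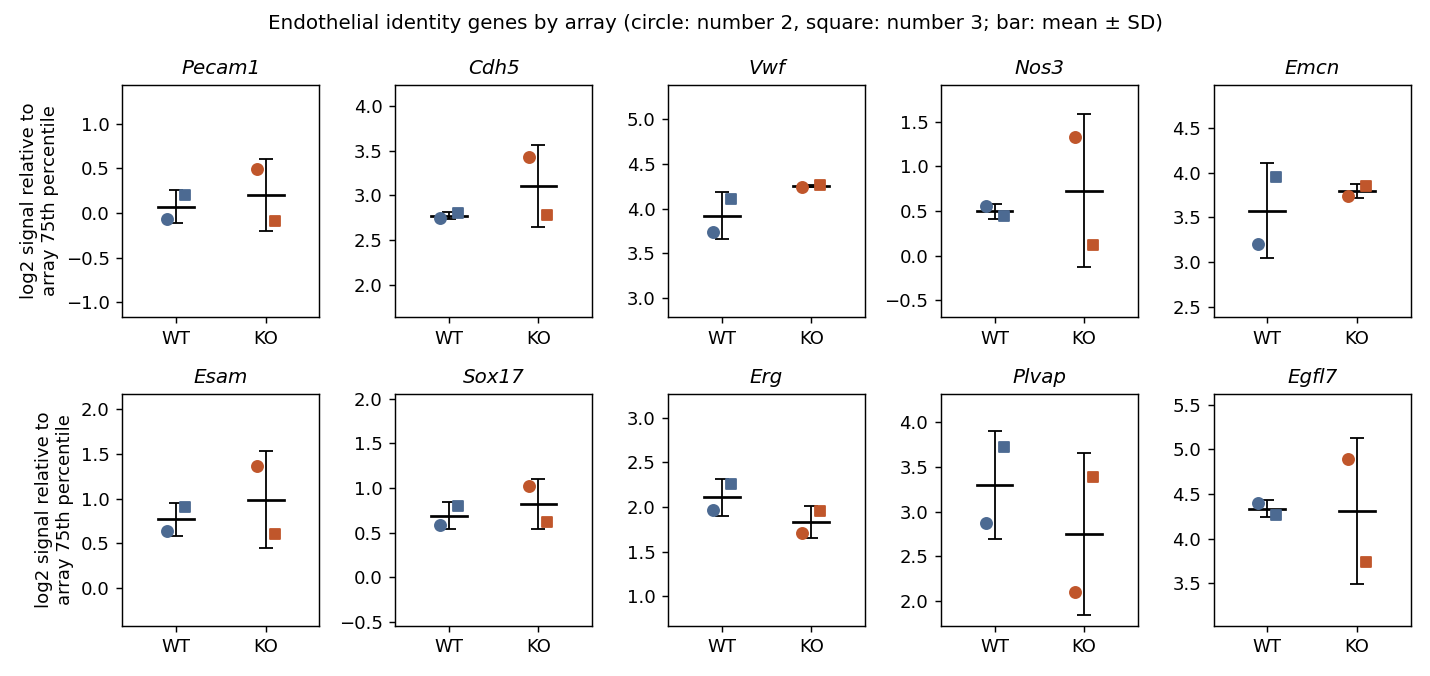
Level of each of the 10 genes on each array, as log2 signal relative to the array's 75th percentile (vertical axis, same span in every panel), for WT (blue) and KO (orange). Circles are the arrays numbered 2, squares those numbered 3, and bars show the mean ± SD of 2 arrays. The groups overlap in 8 panels, while both KO points lie above both WT points for Vwf and below them for Erg.

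The proteins of the endothelial surface and its junctions come first. Pecam1 encodes an adhesion molecule of the cell border, and its main probe was printed on 10 spots of each array. The probe binds chromosome 11, 106542389 to 106544242 (build mm9, minus strand), a span of 1854 bases for a probe of 60 bases, so it reads across a splice junction. It is shown with the probe of Nos3, the other gene with 10 spots, because the spots of these 2 probes measure how closely one array repeats itself.
Pecam1 probe: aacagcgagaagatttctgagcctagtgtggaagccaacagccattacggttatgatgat
Nos3 probe: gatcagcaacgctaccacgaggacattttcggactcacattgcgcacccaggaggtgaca

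Pecam1 read -0.06 on WT 2 and 0.20 on WT 3, against 0.49 on KO 2 and -0.09 on KO 3. KO 2 was the highest array and KO 3 the lowest, so the KO arrays enclosed the WT arrays. The SD over the 10 spots of an array was 0.03 to 0.08, below the SD of 0.41 between the KO arrays. The KO minus WT difference was 0.13 ± 0.31 (limma standard error, n = 2 and 2), made of 0.55 at number 2 and -0.29 at number 3. A dimmer Pecam1 probe at 106543058 to 106543117 lies inside the span of the first and was labelled with a cDNA clone. It gave 0.62 at number 2 and -0.80 at number 3, the same directions, while its mean difference was -0.09.

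Cdh5 encodes VE-cadherin, the cadherin of endothelial adherens junctions. Its brighter probe (chromosome 8, 106668159 to 106668218, plus strand) read 2.75 on WT 2 and 2.80 on WT 3, against 3.43 on KO 2 and 2.78 on KO 3. KO 2 alone stood apart, and the other 3 arrays lay close together. The difference was 0.33 ± 0.31, with 0.68 at number 2 and -0.03 at number 3. The other Cdh5 probe (106667499 to 106667558) gave 0.72 and -0.13 for the same contrasts, so both probes placed KO 2 above the rest.

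Esam encodes an adhesion molecule of endothelial tight junctions and platelets. It read 0.63 on WT 2 and 0.90 on WT 3, against 1.37 on KO 2 and 0.60 on KO 3 (chromosome 9, 37345544 to 37345603, plus strand), again with KO 2 highest and KO 3 lowest. Its difference of 0.22 ± 0.36 was the mean of 0.74 at number 2 and -0.30 at number 3.

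Emcn encodes endomucin, a mucin of capillary and venous endothelium. It read 3.20 on WT 2 and 3.95 on WT 3, against 3.74 on KO 2 and 3.85 on KO 3 (chromosome 3, 137093811 to 137093870, plus strand). Here the odd array was WT 2, the lowest, and the KO arrays lay between the WT arrays. The difference was 0.22 ± 0.34, with 0.55 at number 2 and -0.10 at number 3.

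Plvap encodes the protein of the diaphragms that close fenestrae and caveolae, and it had the most variable level of the 10 genes. It read 2.87 on WT 2 and 3.72 on WT 3, against 2.10 on KO 2 and 3.39 on KO 3 (chromosome 8, 74021877 to 74021936, minus strand), from a processed signal of 6410, 12887, 2613 and 9300 in the same order. KO 2, the highest array for 6 of the 10 genes, was the lowest here, and both arrays numbered 3 were above both numbered 2. The range over the 4 arrays was 1.62, a range larger than that of 81.4% of the genes tested. KO minus WT was -0.55 ± 0.60, or 0.684-fold, with -0.77 at number 2 and -0.33 at number 3. The WT mean was 3.30 ± 0.60 (SD, n = 2) and the KO mean 2.75 ± 0.91 (SD, n = 2), so the groups overlapped. Without KO 2 the difference was 0.10.

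The enzyme and the secreted proteins of endothelium follow. Nos3 encodes the endothelial nitric oxide synthase, which makes the vasodilator nitric oxide. Its probe, given above, binds chromosome 5, 23889636 to 23889695 (plus strand), and read 0.56 on WT 2 and 0.44 on WT 3, against 1.33 on KO 2 and 0.12 on KO 3. The WT arrays were close and the KO arrays far apart, by 1.21 (an SD of 0.86), while the SD over the 10 spots of an array was 0.04 to 0.07. The difference between genotypes was 0.23 ± 0.49, with 0.78 at number 2 and -0.32 at number 3.

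Egfl7 encodes a secreted protein with EGF-like domains that endothelial cells deposit around sprouting vessels. It read 4.40 on WT 2 and 4.27 on WT 3, against 4.89 on KO 2 and 3.74 on KO 3 (chromosome 2, 26447977 to 26448036, plus strand). As for Nos3, KO 2 was highest and KO 3 lowest, with both WT arrays between them. The opposite differences of 0.49 at number 2 and -0.53 at number 3 left a mean of -0.02 ± 0.47.

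Vwf encodes von Willebrand factor, the multimeric glycoprotein that endothelial cells store and release to bind platelets. Its probes are shown because it was the 1 gene of the 10 with both KO arrays above both WT arrays, and because both probes gave that order. The dimmer probe binds chromosome 6, 125635858 to 125635917 (plus strand) and is printed whole, and the brighter one, at 125636551 to 125636610, by its first 30 of 60 bases.
Vwf dimmer probe: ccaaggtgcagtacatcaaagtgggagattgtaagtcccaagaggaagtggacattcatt
Vwf brighter probe, first 30 bases: caagtgaggcctgtgcagctacagcggatt

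The brighter Vwf probe read 3.73 on WT 2 and 4.10 on WT 3, against 4.25 on KO 2 and 4.26 on KO 3. The dimmer probe read 1.41 on WT 2 and 1.75 on WT 3, against 1.81 on KO 2 and 1.93 on KO 3. On both probes WT 2 was lowest, and WT 3 lay closer to the KO arrays than to WT 2. The brighter probe gave a difference of 0.33 ± 0.24 (1.26-fold), with 0.51 at number 2 and 0.16 at number 3, and the dimmer one 0.40 and 0.18. A gene with both KO arrays above both WT arrays was 1 of 10 here, beside 13.3% of all tested genes.

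Sox17 and Erg encode the transcription factors among the 10. Sox17, a SOX factor of arterial endothelium, had 4 probes, of which 2 were well above background on no array and were not tested. Of those 2, the probe at chromosome 1, 4488752 to 4488811, lies on the plus strand, opposite to the other 3. The brightest probe (4481503 to 4481562, minus strand) read 0.58 on WT 2 and 0.80 on WT 3, against 1.02 on KO 2 and 0.62 on KO 3. KO 2 was highest and KO 3 lay between the WT arrays, with a difference of 0.13 ± 0.26 made of 0.44 at number 2 and -0.17 at number 3. The other tested probe (4481890 to 4481949) gave 0.40 and -0.23.

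Erg, an ETS factor that keeps endothelial genes active, was the 1 gene of the 10 with both KO arrays below both WT arrays, where 8.9% of all tested genes were. Its 2 probes are shown because they did not give the same order of the groups. Each is given by its first 30 of 60 bases.
Erg brighter probe (chromosome 16, 95581243 to 95581302, minus strand): gaggactgggagcagtagtattcagaacca
Erg dimmer probe (chromosome 16, 95581956 to 95582015, minus strand): cacaccatgtatgatgtcatttgaagggaa

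The brighter Erg probe read 1.96 on WT 2 and 2.25 on WT 3, against 1.71 on KO 2 and 1.95 on KO 3. KO 3 was below WT 2 by less than 0.01, so the separation of the groups rests on that margin. The dimmer probe read -1.16 on WT 2 and -1.06 on WT 3, against -1.33 on KO 2 and -1.10 on KO 3, and there KO 3 was above WT 2. The brighter probe gave -0.28 ± 0.24, with -0.26 at number 2 and -0.30 at number 3, whereas the dimmer one gave -0.17 and -0.04.

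**Figure D2:**
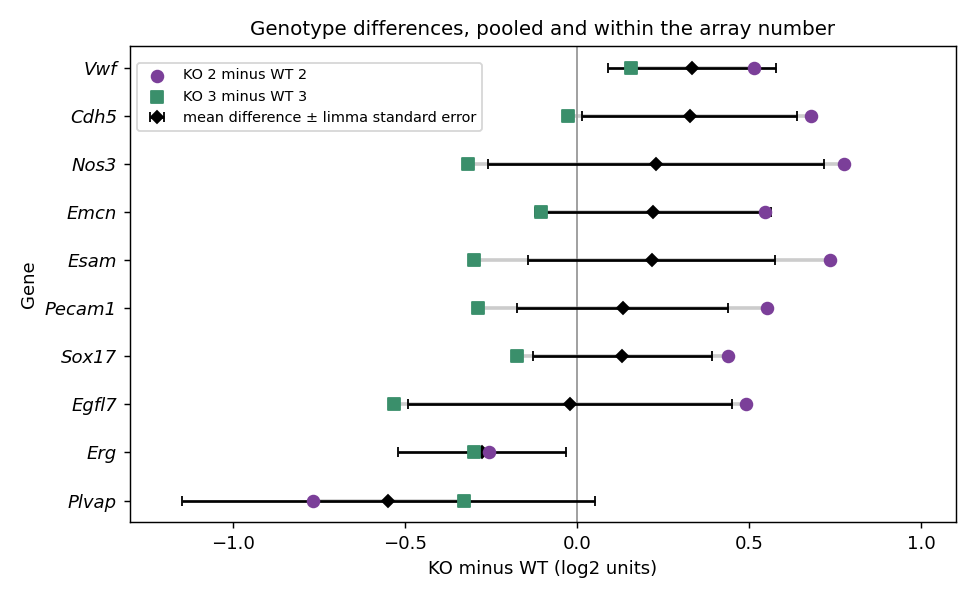
KO minus WT difference of each of the 10 genes (horizontal axis, log2 units; genes in order of the mean difference). Black diamonds are the mean difference with its limma standard error, purple circles KO 2 minus WT 2, and green squares KO 3 minus WT 3. The circles lie right of 0 for 8 genes and the squares for Vwf alone, and Erg and Plvap lie left of 0 at both numbers. The black diamonds lie right of 0 for 7 genes, 5 with spike-in scaling and 8 with a median shift.

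The order of the arrays differed between genes. Nos3 and Egfl7 had the order KO 2, WT 2, WT 3, KO 3 from high to low, and Plvap had WT 3, KO 3, WT 2, KO 2. The brighter Erg probe had WT 3, WT 2, KO 3, KO 2, an order that the dimmer one did not share. Averaged over the 10 genes the level was 2.06 on WT 2 and 2.34 on WT 3, against 2.43 on KO 2 and 2.12 on KO 3. With this scaling KO 2 was thus the highest array and WT 2 the lowest, and both groups held a high and a low array. The order under the other scalings was not listed, and the place of KO 2 can depend on them. KO 2 minus WT 2 was -0.528 for the log2 75th percentile and -0.194 for the median log2 spike-in signal.

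Markers of other cells moved along the same arrays. The mean level of 14 cardiomyocyte genes was 6.51 on WT 2 and 5.34 on WT 3, against 7.55 on KO 2 and 4.56 on KO 3, the array order that Nos3 and Egfl7 had. All 14 had a positive difference at number 2 and a negative one at number 3, with medians of 1.06 and -0.69. The mean of 10 fibroblast genes was 5.66 on WT 2 and 5.79 on WT 3, against 4.67 on KO 2 and 5.52 on KO 3. Single fibroblast genes differed from that order, with Postn highest on KO 3 and Col1a1 on WT 2. The mean of 10 macrophage genes was 2.76 on WT 2 and 3.19 on WT 3, against 1.87 on KO 2 and 3.51 on KO 3. Thus KO 2 was the array with the highest cardiomyocyte mean and the lowest fibroblast and macrophage means. The part of these shifts in the values of the endothelial genes was not tested.

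Vwf and Esam are also made by megakaryocytes and platelets. The mean of 11 genes of that lineage was -2.81 on WT 2 and -1.49 on WT 3, against -2.54 on KO 2 and -2.09 on KO 3, and 6 of the 11 had a higher KO mean. The highest array was WT 3 for this list, KO 3 for Vwf and KO 2 for Esam. Itga2b, Gp1ba, Gp5 and Gp6 of the list were dim, well above background on only 3 arrays. The part of platelets in the Vwf and Esam values was not tested. Mural cells, which wrap vessels, averaged 2.78, 3.20, 2.74 and 3.36 over 10 genes in the same order of arrays. Both arrays numbered 3 were thus above both numbered 2 in that mean, but its members went both ways. Acta2 and Tagln had that order, whereas Abcc9 (1.41, 0.27, 2.30 and 0.16) and Kcnj8 (3.43, 2.85, 3.87 and 2.61) had both arrays numbered 2 on top. T and B lymphocyte genes averaged -2.59, -2.45, -4.04 and -1.77 over 8 genes, lowest on KO 2.

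**Figure D3:**
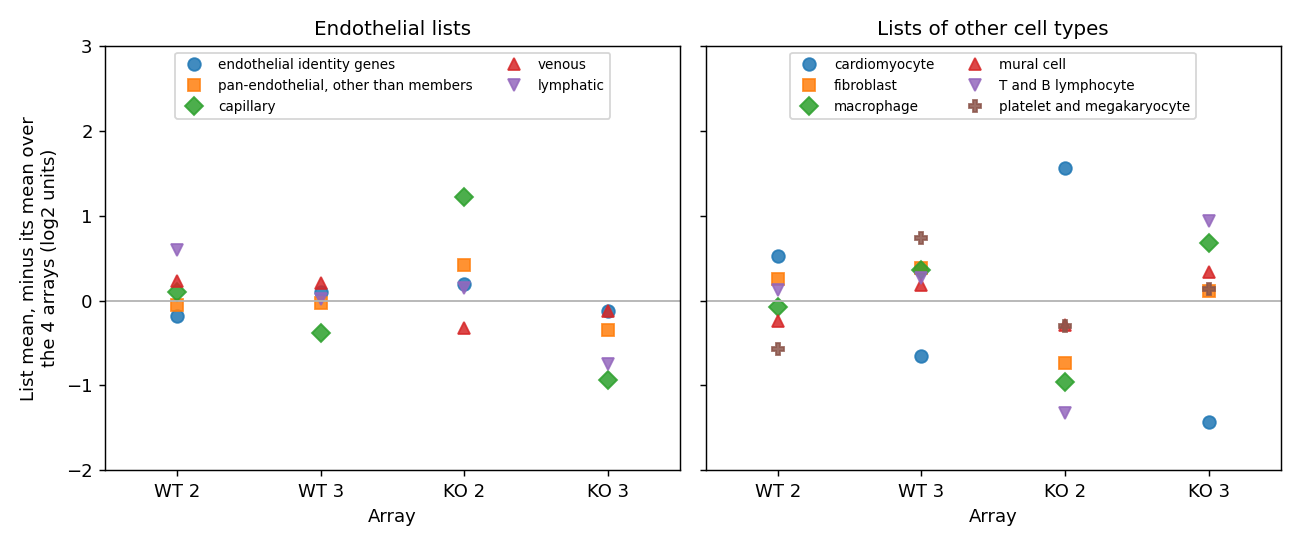
Mean level of each gene list on each array, minus the list's own mean over the 4 arrays (vertical axis, log2 units), for endothelial lists on the left and lists of other cell types on the right. The mean of the 10 endothelial identity genes (blue circles, left) stays within 0.2 of 0, while the cardiomyocyte list (blue circles, right) is highest on KO 2 and lowest on KO 3. Single genes of the 10 varied more, with a range over the arrays of 1.62 for Plvap and 1.21 for Nos3.

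Other endothelial genes were read from 8 lists of 95 genes, of which 93 were tested (Bmx and Hapln1 were too dim). Limma called 0 of the 93, and 0 had an unadjusted p under 0.05. The KO mean was higher for 52 of the 93, with a median difference of 0.07, beside 0.04 over all tested genes. Within the numbers the medians were 0.38 and -0.15, and 47 of the 93 had a positive and then a negative difference.

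The list nearest in kind is that of 21 further pan-endothelial genes, such as receptors for VEGF and angiopoietins. Its medians were 0.50 at number 2 and -0.30 at number 3, and 16 of its 21 genes had those signs. Its largest positive mean difference was that of S1pr1, the receptor for sphingosine 1-phosphate, which read 1.53 on WT 2 and 1.83 on WT 3, against 2.40 on KO 2 and 1.76 on KO 3. Its largest negative one was that of Ace, the angiotensin-converting enzyme, which read 0.62, 1.61, 0.61 and 0.66 in the same order. In Ace, WT 3 alone stood above the rest.

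Capillary genes, mostly for the uptake of lipid and the handling of gas and water, had the widest split of the endothelial lists. All 10 tested had a positive difference at number 2 and a negative one at number 3, with medians of 1.09 and -0.49. Gpihbp1, which anchors lipoprotein lipase in capillaries, gave 1.49 at number 2 and -0.28 at number 3, with KO 2 the highest array and KO 3 the lowest. Several of the 10, among them Cd36, Fabp4 and Lpl, are known to be expressed in cardiomyocytes or fat cells too.

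Of 8 venous genes 7 had a lower KO mean, with a median difference of -0.50, and Lrg1 was the exception at 0.13 ± 0.44. At both numbers 5 of the 8 were lower in KO, beside 18.4% of all tested genes. A lower KO mean was also held by 10 of 10 fibroblast genes, with a median of -0.60, by 9 of 10 macrophage genes, with a median of -0.41, and by 6767 of the 15062 genes tested. The part of those cells in the venous values was not tested. Aplnr, the apelin receptor of venous and sprouting endothelium, read 0.47 on WT 2 and 0.49 on WT 3, against -0.05 on KO 2 and -0.57 on KO 3, a difference of -0.79 ± 0.28 with an adjusted p of 0.9999 by limma. For 2 of the 8 venous genes, beside 8.9% of all tested genes, the KO arrays both lay below the WT arrays.

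Of 7 lymphatic genes 6 had a lower KO mean, with a median of -0.50 and medians of -0.75 at each number. Ccl21a, a chemokine of lymphatic endothelium that guides dendritic cells, read 4.68 on WT 2 and 2.54 on WT 3, against 3.35 on KO 2 and 0.73 on KO 3. Its difference of -1.57 ± 1.25 was large, but WT 3 was below KO 2, and near-identical copies of this gene may share its probe. Lyve1, the hyaluronan receptor, had the 1 positive difference of the list, 0.29 ± 0.66, with 1.34 at number 2 and -0.75 at number 3.

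Of 11 arterial genes tested 8 had a higher KO mean, with medians of 0.24 at number 2 and 0.26 at number 3. These medians hide members that went both ways, since 3 of the 11 were higher in KO only at number 2, 4 only at number 3 and 4 at both. For 3 of the 11, beside 13.3% of all tested genes, both KO arrays were above both WT arrays. Dll4, the Notch ligand of arterial and tip cells, read -2.77 on WT 2 and -2.96 on WT 3, against -1.92 on KO 2 and -2.48 on KO 3, a difference of 0.67 ± 0.29. Both KO arrays were above both WT arrays for Dll4, with an adjusted p of 0.9999 by limma. Fbln5, a protein of elastic fibres, had the largest negative difference, -0.58 ± 0.85, made of -1.19 at number 2 and 0.03 at number 3, and KO 2 was the lowest array.

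Of 16 endothelial transcription factors 9 had a higher KO mean, with a median of 0.04. Klf2, a factor induced by shear stress, gave 0.39 ± 0.25, with 0.44 at number 2 and 0.34 at number 3, and Mecom gave -0.37 ± 0.43, with -0.74 and 0.01. The 6 tested endocardial genes had a median of 0.07, 3 higher and 3 lower, with Npr3 at 0.44 ± 0.58 (0.69 at number 2 and 0.20 at number 3) and Nrg1 at -0.61 ± 1.29 (-1.71 and 0.49). Standard errors of that size cover the differences, and neither gene separated the groups.

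Genes of activated and sprouting endothelium had medians of 0.30 at number 2 and 0.20 at number 3 over 15 tested, with 8 higher and 7 lower. Kcne3, a potassium channel subunit of tip cells, read -2.84 on WT 2 and -2.40 on WT 3, against -2.09 on KO 2 and -1.74 on KO 3. Angpt2, the angiopoietin that destabilises vessels, read 0.89 on WT 2 and 2.15 on WT 3, against -0.21 on KO 2 and 1.20 on KO 3, a difference of -1.03 ± 0.72. For Kcne3 both KO arrays were above both WT arrays. For Angpt2 KO was lower at both numbers by about the same amount, -1.10 and -0.96, but KO 3 was above WT 2.

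**Figure D4:**
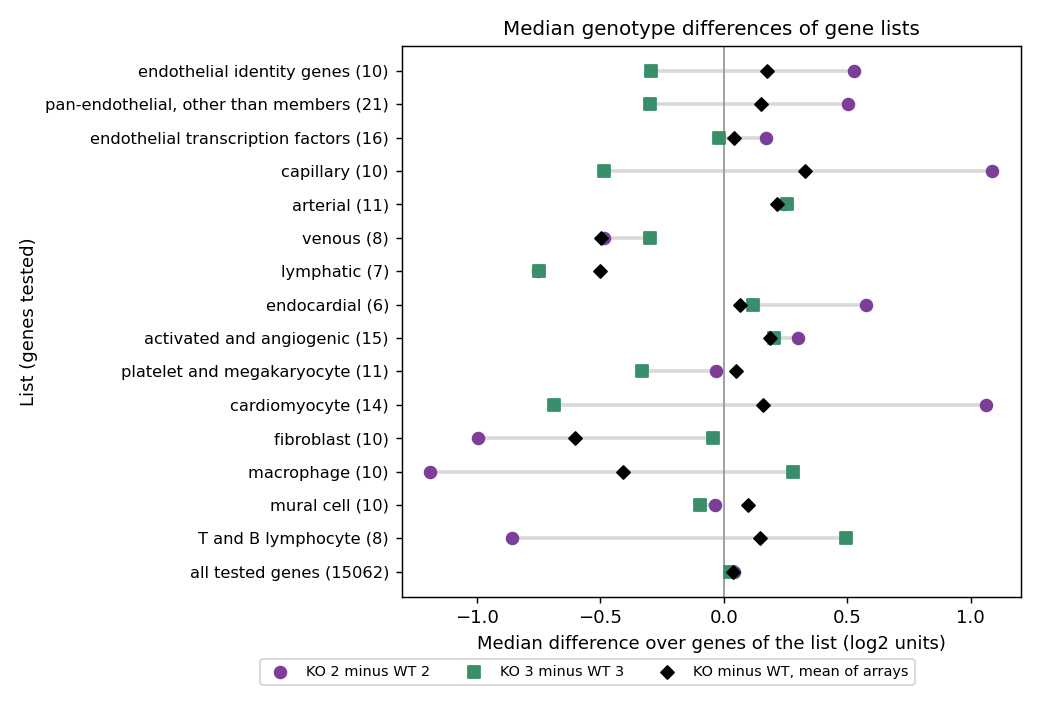
Median KO minus WT difference over the tested genes of each list (horizontal axis, log2 units), as KO 2 minus WT 2 (purple circles), KO 3 minus WT 3 (green squares) and mean of arrays (black diamonds), with all 15062 tested genes in the bottom line. The 10 endothelial identity genes lie at 0.53, -0.29 and 0.18, the capillary and cardiomyocyte lists spread further the same way, and the venous and lymphatic lists lie left of 0 at both numbers. So do the fibroblast list (-0.99 and -0.04), the platelet and megakaryocyte list (-0.03 and -0.33) and the mural cell list (-0.04 and -0.09). With spike-in scaling the median difference of the 10 genes was 0.00220.

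The profile of the 10 genes over the 4 arrays, each centred on its own mean, was compared with that of 14372 other genes well above background on all arrays. The 5 genes nearest to their mean profile were Ahsa2, Rnf167, Gdpd1, Zcchc4 and Mt2, at a root mean square distance of 0.019 to 0.027 log2 units, and none of the 5 stands in the endothelial lists. Of the 10 genes themselves, Sox17 lay nearest, at 0.049, and Plvap farthest, at 0.676. The mean profile is flat, between -0.18 and 0.19. Of the 14372 genes, 6607 had a root mean square deviation under 0.25 from their own mean, so profiles with little variation were common. How many genes lay close to the mean profile was not counted.

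Promoter windows of 250 bases before the start site were found in RefSeq (build GRCm38.p6) for 3 of the 10 genes, Egfl7, Emcn and Erg, as 7 windows. They were searched on both strands for the ETS core in the form AGGAAG, read as CTTCCT on the other strand, since Erg itself is an ETS factor. All 3 genes held it in at least 1 window, beside 32.3% of 27025 genes, and none held the form CCGGAA, beside 13.6%. These 3 genes had 7 windows, against 32851 windows for the 27025 genes, so a count by gene favours them. By window, 4 of the 7 held AGGAAG, beside 29.5% of all windows. Emcn and Egfl7 had nearly the same difference at number 2 (0.55 and 0.49) but not at number 3 (-0.10 and -0.53). A window of each is shown with AGGAAG or CTTCCT in capitals.
Emcn, chr3:137340828-137341077, plus strand: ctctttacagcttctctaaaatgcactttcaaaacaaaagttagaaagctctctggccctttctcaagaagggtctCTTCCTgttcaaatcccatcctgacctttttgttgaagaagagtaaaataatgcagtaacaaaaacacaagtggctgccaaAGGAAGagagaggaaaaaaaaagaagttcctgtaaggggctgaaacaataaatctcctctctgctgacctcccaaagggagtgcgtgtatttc
Egfl7, chr2:26583615-26583864, plus strand: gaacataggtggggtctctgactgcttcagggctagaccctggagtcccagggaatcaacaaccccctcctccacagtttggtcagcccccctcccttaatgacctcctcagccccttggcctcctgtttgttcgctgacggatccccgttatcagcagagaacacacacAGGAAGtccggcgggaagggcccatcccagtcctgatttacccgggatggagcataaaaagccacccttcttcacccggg

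The SOX core in the form ACAATG and the GATA core AGATAA each stood in windows of 1 of the 3 genes (12.2% and 11.4% of all genes), and the GC box GGGCGG in windows of 2 (35.4%). No measurement of binding or of histone marks was used here, and a match is a description of letters only.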

How the data were processed

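The authors scanned the arrays with Agilent Feature Extraction and deposited the processed intensity of each spot, background-subtracted and detrended per the file headers (version 10.7.3.1, build mm9), and a table of log2 values. Set against the scanner files, 99.89% to 99.95% of the log2 values deposited by the authors lay within 0.01 of the quantile-normalized intensity. Here the log2 intensity was reduced by each array's 75th percentile, spots of a probe were averaged, and outlier-flagged spots were left out. Tested probes were those that both WT or both KO arrays held well above background, fitted with limma 3.58.1 (lmFit and eBayes, R 4.3.3), with genotype as the only factor and Benjamini-Hochberg adjustment over all 28305. The fit was first run on simulated data with differences far larger than any of the 10 genes had, so that run does not show whether differences of their size can be found. All 10 genes were named, and in each endothelial list the largest rise and fall among genes above background on all arrays, while the other examples were chosen after their values were seen. The 10 genes and the lists were chosen with earlier results of these data known. The labels do not say whether a sample is 1 mouse or a pool, or how samples were matched. The sex-linked signals differ between the arrays of each group, so these do not hold RNA of the same mouse, and the p-values measure the spread between them, which includes that difference. The number of arrays limits the precision. Apart from the splice junction read from the span of the main Pecam1 probe, no probe was placed in an exon, intron or UTR. No mm9 annotation was used here. Alternatives were other background correction, normalization and filters, spike-in scaling, the authors' values, a replicate block, the methods' t-test and leaving out each array.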

Additional observations from a re-analysis of the deposited data

Results flagged for a closer look

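The median KO minus WT difference of the 10 endothelial identity genes had opposite signs at the 2 array numbers, 0.529 between KO 2 and WT 2 and -0.293 between KO 3 and WT 3. With 1 array per genotype and number, the difference between them was not tested. Xist, which lies outside the comparison of genotypes, reached 14.13 on WT 2 and 13.24 on KO 2 (log2 signal), in samples labelled male, and was not above background on WT 3 and KO 3.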

How the results depend on the processing

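No probe and none of the 10 genes was called under any setting. Limma passed between 310 and 1162 probes at an unadjusted p under 0.05 with all 4 arrays, while leaving out an array in turn gave 125 to 7278, where the spread comes from the intact group alone and is lent to the lone array. The methods' t-test passed 879, of which 88 had a fold over 2, and 0 after Benjamini-Hochberg adjustment. Leaving out 1 array in turn, the median difference of the 10 genes ran from -0.111 (without KO 2) to 0.376 (without KO 3). The same ranges were -0.157 to 0.598 for Emcn, -0.599 to 0.557 for Egfl7, -0.155 to 0.42 for Pecam1, -0.375 to 0.835 for Nos3, -0.166 to 0.602 for Esam, -0.0675 to 0.332 for Sox17, -1.19 to 0.0964 for Plvap, 0.0023 (without KO 2) to 0.653 for Cdh5, 0.149 (without WT 2) to 0.52 for Vwf and -0.421 to -0.132 (without WT 3) for Erg. With all 4 arrays, 3 of 90 differences changed sign: Egfl7 to 0.00813 with a median shift, and Pecam1 to -0.0405 and Sox17 to -0.0406 with spike-in scaling, an alternative chosen after seeing the data. The other filters and the replicate block left every difference of the 10 genes as it was, so no sign could change there. The authors' values nearly repeated quantile normalization. The median over all tested probes was 0.0175, but 0.132 with normexp correction and -0.155 with spike-in scaling, and relative to the median gene 7 of the 10 were higher with spike-in scaling and 6 with normexp. With the array number as a replicate block 602 probes had an unadjusted p under 0.05, beside 410 without it, and 0 were called. Arrays of one number deviated together (correlation 0.569 over tested probes), but with 2 numbers that is a hint only. No block for slide or scan day could be fitted, since the 4 arrays shared 1 of each. WT and KO took neighbouring positions of that slide, 1 and 2 against 3 and 4, so genotype and position cannot be told apart.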
